A study of Mus musculus with 26 samples.

Results

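The 9 genes described here encode integrin chains and adhesion molecules of leukocytes: Itgam, Itgax, Itgal, Itga4, Itgb1 and Itgb2, which encode integrin subunits, Icam1 and Icam2, which encode integrin ligands, and Cd226, which encodes an adhesion and activating receptor. They were chosen by name, and all 9 were among the 50104 genes listed in all 3 count tables. Bulk RNA sequencing was carried out on sorted cells of naïve female mice in 26 samples. Bone marrow monocytes (Ly6G-, SiglecF-, F4/80-, CD11b+, Ly6C+) and small peritoneal macrophages (SPMs; CD11b+, F4/80 intermediate, MHCII+) came as 4 WT and 4 ACKR2-/- samples each. Lung interstitial macrophages that lack MHCII (SiglecF-, Ly6C-, CD11b+, F4/80+) came as 5 WT and 5 ACKR2-/- samples. ACKR2 is an atypical chemokine receptor that takes up inflammatory CC chemokines without classical signalling. The WT mice were purchased C57BL/6J mice and the ACKR2-/- mice came from a separate homozygous colony, so genotype and colony cannot be told apart. Monocyte and SPM samples were pools of several mice, and how many mice made up a lung sample was not stated. Where samples of a group are not from separate cell preparations, the p-values below measure a spread that is in part technical.

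Integrins are receptors made of an alpha and a beta chain that reach the cell surface as a pair and bind ligands once signals inside the cell have opened them. The Itgb2 product, CD18, pairs with the products of Itgal (LFA-1, CD11a), Itgam (Mac-1, CD11b), Itgax (CD11c) and Itgad (CD11d), and these leukocyte integrins hold cells to ICAM molecules on endothelium and other cells. The Itga4 and Itgb1 products form VLA-4, which binds VCAM-1 and fibronectin, and CD226 (DNAM-1) binds the nectin-family ligands CD155 and CD112.

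Each monocyte sample held 15450670 to 19218213 counts on genes, each SPM sample 12781144 to 35400034 and each lung sample 19950019 to 29770252. Ackr2, the targeted gene, lay between 0 and 0.111 CPM (read counts scaled to library size) in WT monocytes and at 0 in ACKR2-/- monocytes, between 0.240 and 0.616 CPM in WT SPMs and at 0 in ACKR2-/- SPMs, and between 0 and 22.1 CPM in WT and between 0.282 and 1.64 CPM in ACKR2-/- lung macrophages. The library labelled WT 5 of the lung held no Ackr2 read. The library labelled WT 3 of the lung stood apart in the SPM marker list, which includes the MHCII genes Cd74 and H2-Ab1, at 70351 summed CPM against 5623 to 9128 CPM in the other 4 WT libraries, although the gate took cells without MHCII. It was also highest in the lung interstitial macrophage markers, at 9833 summed CPM against 1355 to 3180 CPM in the other lung libraries. SPMs held 6675 to 12114 CPM of that list on the scale of their own table, with C1qb the most abundant. Which cells gave this RNA was not tested. Markers of other cell types were present in the lung samples, where the 7 epithelial markers (Sftpc the most abundant) summed to between 287 and 19379 CPM per sample and none was at 0 in every sample. In monocytes the 10 T cell markers summed to between 3.28 and 4.79 CPM in WT and between 61.5 and 114 CPM in ACKR2-/- samples, with Trbc2 at a mean of 0.528 and 17.7 CPM and none at 0 in every sample. Of the 17 marker lists, the sums also differed at least 2-fold between genotype means for platelet markers in monocytes (Ppbp, 13.1 and 3.66 CPM in WT and ACKR2-/-), for mesothelial and fibroblast markers near 0 in monocytes and SPMs, and in the lung for NK cell (Gzma, 146 and 672 CPM), neutrophil (S100a9, 23.6 and 76.0 CPM), dendritic cell (Ccr7, 208 and 143 CPM), platelet (Pf4, 214 and 60.2 CPM) and SPM markers (Cd74, 12807 and 4521 CPM). Several of these differences in means rested on a single library. In the lung WT 3 held 1215 CPM of dendritic cell and 655 CPM of platelet markers, against at most 291 and 171 CPM in the others. The lung neutrophil sum was 458 CPM in ACKR2-/- 5. ACKR2-/- 2, 3 and 4 lay within the WT range of 1.31 to 71.3 CPM and ACKR2-/- 1 above it. In monocytes the platelet sum was 60.0 CPM in WT 3 and 1.58 to 18.7 CPM in the other samples. The epithelial levels overlapped between genotypes and the T cell levels in monocytes did not. In these bulk samples fewer cells of a type and less RNA per cell cannot be told apart.

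Levels across cell types were set on a joint CPM scale, on which all 26 libraries were scaled together by TMM, a scaling that assumes most genes do not differ. In WT samples, 7 of the 9 genes were called different between SPMs and monocytes, against 41.9% of the 17792 genes tested. Between lung macrophages and SPMs, and between lung macrophages and monocytes, 8 of 9 genes were called, against 62.3% and 63.8% of all genes. A call was an adjusted p below 0.05 with an absolute log2 fold change above 0.5 in edgeR's quasi-likelihood test. With so many genes called, nothing is read from these counts, and each gene is given by its own levels. Each cell type had its own table from its own sequencing and counting run. In each of these comparisons, SPMs against monocytes included, cell type and run therefore cannot be told apart. The lung table also carried summary lines of another counter than the one named for the series.

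**Figure D1:**
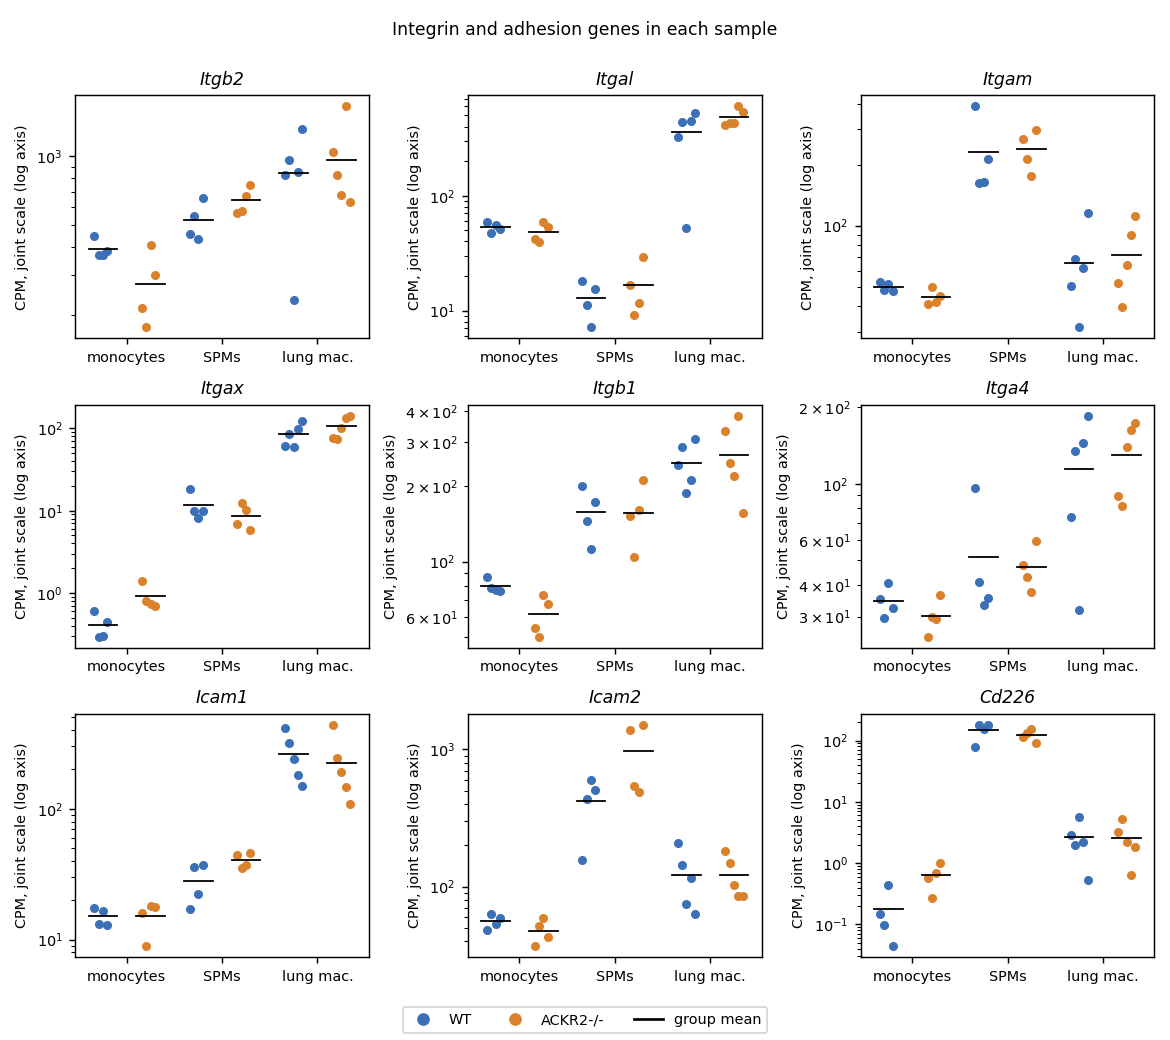
Joint CPM (log axis) of the 9 genes in each sample of monocytes, SPMs and lung macrophages; points are samples, blue for WT and orange for ACKR2-/-, and black lines are group means. Cd226 has its highest values in SPMs, Itgal and Icam1 in lung macrophages, and the low blue point in the lung panels of Itgb2, Itgal and Itga4 is the library labelled WT 3.

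Itgb2 (ENSMUSG00000000290, chr10:77530252-77565708, plus strand, GRCm38), the beta chain shared by the leukocyte integrins, was abundant in every cell type. Its joint CPM in WT was 391 ± 37.1 (SD, n = 4) in monocytes, 522 ± 103 (SD, n = 4) in SPMs and 841 ± 392 (SD, n = 5) in lung macrophages. The lung mean exceeded the monocyte mean by 1.10 ± 0.34 on the log2 scale (SE; edgeR adjusted p = 0.0065), while the step from monocytes to SPMs (0.42 ± 0.35, adjusted p = 0.37) and from SPMs to lung macrophages (0.69 ± 0.34, adjusted p = 0.077) were within the spread. Without the library labelled WT 3 of the lung, at 314 CPM against 1009 to 1649 CPM in the other 4 WT lung libraries, the step from SPMs to lung macrophages was 0.93 with an adjusted p of 0.0049.

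Itgal (ENSMUSG00000030830, chr7:127296260-127335138, plus strand), the LFA-1 alpha chain, had the order lung macrophages, monocytes, SPMs. Its joint CPM in WT was 357 ± 184 (SD, n = 5), 53.4 ± 4.77 (SD, n = 4) and 12.9 ± 4.79 (SD, n = 4) in that order. It was lower in SPMs than in monocytes (log2 difference -2.03 ± 0.43, edgeR adjusted p = 0.00042) and higher in lung macrophages than in either (2.74 ± 0.43 over monocytes, adjusted p = 4.9e-06; 4.77 ± 0.48 over SPMs, adjusted p = 4.6e-09). In the lung the WT libraries held 396, 563, 70.2, 617 and 648 CPM on the scale of the lung table. The library labelled WT 3 was far below the other 4, and it was the library with the high MHCII genes.

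Itgam (ENSMUSG00000030786, chr7:128062640-128118491, plus strand) encodes CD11b, which was part of the gate of all 3 cell types, and Itgax (ENSMUSG00000030789, chr7:128129547-128150657, plus strand) encodes CD11c and is the next of these genes downstream. Both lie on chromosome 7 with Itgal and Itgad. Their upstream sequences are shown because these neighbours on the same strand had different orders across the cell types. They are the 250 bases before the RefSeq start (GRCm38.p6), at chr7:128062390-128062639 for Itgam and chr7:128129300-128129549 for Itgax, with capitals marking GAGGAA or its reverse complement TTCCTC, the core letters bound by PU.1, a transcription factor of myeloid cells.
Itgam: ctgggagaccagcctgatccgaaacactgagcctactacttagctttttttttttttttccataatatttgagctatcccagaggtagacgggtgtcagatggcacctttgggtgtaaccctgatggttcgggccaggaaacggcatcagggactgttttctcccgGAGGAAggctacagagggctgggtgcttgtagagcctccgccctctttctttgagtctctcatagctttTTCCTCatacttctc
Itgax: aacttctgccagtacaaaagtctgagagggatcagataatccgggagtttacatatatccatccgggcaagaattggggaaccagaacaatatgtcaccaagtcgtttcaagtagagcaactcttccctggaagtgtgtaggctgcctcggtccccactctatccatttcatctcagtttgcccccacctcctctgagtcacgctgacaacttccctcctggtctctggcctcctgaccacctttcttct
The Itgam window held 2 matches, at -84 and -15 from the start, and the Itgax window held 0. Of 32851 RefSeq promoter windows of this length, 23.3% held at least 1 match on either strand. The RefSeq promoter table held 5 of the 9 genes (Itgam, Itgax, Itga4, Itgb1 and Icam1).

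Itgam was highest in SPMs, with a joint CPM in WT of 232 ± 106 (SD, n = 4) against 50.1 ± 2.57 (SD, n = 4) in monocytes and 65.6 ± 31.5 (SD, n = 5) in lung macrophages. SPMs exceeded monocytes by 2.21 ± 0.34 on the log2 scale (edgeR adjusted p = 7.9e-06), lung macrophages were below SPMs (-1.82 ± 0.31, adjusted p = 1.7e-05), and monocytes and lung macrophages did not differ beyond their spread (0.39 ± 0.31, adjusted p = 0.28). Itgax was higher at each step of the order monocytes, SPMs, lung macrophages, from 0.410 ± 0.144 (SD, n = 4) to 11.6 ± 4.62 (SD, n = 4) to 85.8 ± 26.3 (SD, n = 5) joint CPM. The steps were 4.82 ± 0.39 (adjusted p = 2.9e-10) and 2.87 ± 0.31 (adjusted p = 1.9e-08) on the log2 scale in the same edgeR fit. In monocytes Itgax rested on 6 to 12 reads per WT library.

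The counting of Itgam was limited by a neighbour. The readthrough gene Gm49368, on the same strand, covers 3450 of the 5024 exonic bases of Itgam in the GENCODE M21 annotation, and reads in the shared bases may have been set aside as ambiguous. Gm49368 itself held 0 to 5 counts per monocyte sample, 4 to 10 per SPM sample and 0 to 14 per lung sample. Levels of Itgam per length may therefore be understated. Differences of Itgam between samples counted the same way are not touched by a loss that is equal in all of them.

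The makeup of the alpha chain mRNA differed between the cell types. Joint CPM was divided by gene length in kb and each of the 4 alpha chains that pair with CD18 was given as a share of their sum within a sample, a ratio that no scaling between libraries can move. In WT monocytes Itgam took 54.9% ± 1.21 and Itgal 44.7% ± 1.10 (SD, n = 4), with Itgax at 0.466%. In WT SPMs Itgam took 91.1% ± 1.30 (SD, n = 4), Itgax 4.88% and Itgal 4.01%. In WT lung macrophages Itgal took 59.0% ± 16.5 and Itgax 24.5% ± 12.4 (SD, n = 5), and Itgam 16.2% ± 4.57. The library labelled WT 3 raised the latter 2 means, at 46.6% Itgax and 23.4% Itgam. The other 4 WT lung libraries held 17.6 to 20.3% Itgax and 12.0 to 18.1% Itgam. The shares of Itgal ranged from 43.1 to 45.7% in WT monocytes, from 3.06 to 4.98% in WT SPMs and from 61.9 to 68.1% in the 4 lung WT libraries other than WT 3, which had 29.7%, so that these ranges did not overlap between the 3 cell types. With WT 3 the lung range overlapped that of monocytes. Itgad, the remaining partner, stayed below 0.55% in every sample.

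**Figure D2:**
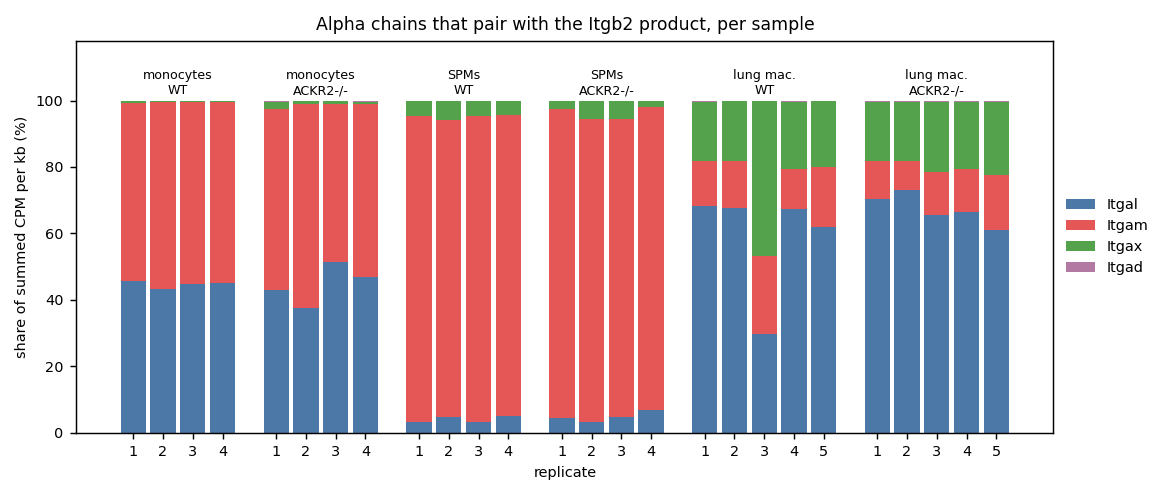
Share (%) of Itgal, Itgam, Itgax and Itgad in the summed CPM per kb of these 4 alpha chain genes, 1 bar per sample, grouped by cell type and genotype. Itgam fills at least 89.5% of every SPM bar, Itgal and Itgam divide the monocyte bars, and Itgal leads in all lung bars except WT 3.

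Where only the exonic bases that no other gene covers were used as length, an alternative chosen after seeing the data, the share of Itgam was 79.5% in WT monocytes, 97.0% in WT SPMs and 37.8% in WT lung macrophages, that of Itgal 20.3%, 1.34% and 44.3%, and that of Itgax 0.212%, 1.63% and 17.7%. The order of the cell types by the shares of Itgam, Itgal and Itgax was the same under both lengths. The order of the chains within WT lung macrophages was not, since the mean of Itgam then stood above that of Itgax and nearer to that of Itgal. That nearness rested in part on the library labelled WT 3, the lowest in Itgal and the highest in Itgam. Over the WT lung libraries Itgal ranged from 19.6 to 53.2% and Itgam from 30.4 to 49.3%. In monocytes the lead of Itgam over Itgal was wider. In ACKR2-/- samples the shares of the leading chain under the full length were 53.8% Itgam in monocytes (range 47.5 to 61.4%), 91.4% Itgam in SPMs (90.0 to 93.0%) and 67.2% Itgal in lung macrophages (61.0 to 73.0%), and each of these ranges overlapped that of the WT samples. The small shares of Itgax and Itgad in monocytes did not overlap between genotypes. Itgax took 0.338 to 0.637% in WT and 0.828 to 1.97% in ACKR2-/- monocytes, and Itgad 0 to 0.0514% and 0.0616 to 0.479%. Both rested on few reads, with 20 of Itgad over all monocyte samples.

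Itgb1 (ENSMUSG00000025809, chr8:128685654-128733200, plus strand) and Itga4 (ENSMUSG00000027009, chr2:79255426-79333123, plus strand), the chains of VLA-4, both had the order lung macrophages, SPMs, monocytes. Itgb1 reached 248 ± 50.3 (SD, n = 5), 158 ± 37.9 (SD, n = 4) and 79.6 ± 4.98 (SD, n = 4) joint CPM in WT, and both steps passed the test, SPMs over monocytes by 0.99 ± 0.25 (edgeR adjusted p = 0.0021) and lung macrophages over SPMs by 0.65 ± 0.24 (adjusted p = 0.019) on the log2 scale. The second step lost its call without the library labelled WT 3 of the SPMs (0.52, adjusted p = 0.079) and without the library labelled WT 5 of the lung (0.56, adjusted p = 0.052). Itga4 reached 114 ± 60.8, 51.5 ± 30.0 and 34.6 ± 4.76 joint CPM, where lung macrophages exceeded SPMs (1.15 ± 0.37, adjusted p = 0.0086) and SPMs and monocytes did not differ beyond their spread (0.58 ± 0.38, adjusted p = 0.24). Per kb, Itga4 was the scarcer chain in every sample, with an Itga4 to Itgb1 ratio of 0.127 ± 0.0191 in WT monocytes, 0.0920 ± 0.0338 in WT SPMs and 0.130 ± 0.0612 in WT lung macrophages. The antisense gene Cerkl covers 1124 of the 13978 exonic bases of Itga4.

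Icam1 (ENSMUSG00000037405, chr9:21015985-21028817, plus strand) encodes a ligand of LFA-1 and Mac-1 that inflammatory signals raise through NF-κB. It was highest in lung macrophages, with 262 ± 108 (SD, n = 5) joint CPM in WT against 28.1 ± 9.92 (SD, n = 4) in SPMs and 15.1 ± 2.32 (SD, n = 4) in monocytes. The step from SPMs to lung macrophages was 3.22 ± 0.37 on the log2 scale (edgeR adjusted p = 4.9e-08). The step from monocytes to SPMs (0.90 ± 0.35, adjusted p = 0.044) was called but lost its call when any of 6 libraries was left out, namely WT 1, 2, 3 or 4 of the monocytes and WT 2 or 4 of the SPMs, with adjusted p between 0.058 and 0.14. The 250 bases before its RefSeq start, at chr9:21015690-21015939 (GRCm38.p6, plus strand), are shown because Icam1 had one of the larger differences between lung macrophages and SPMs. Capitals mark GGAAATTCC, an NF-κB type sequence searched with its reverse complement GGAATTTCC.
Icam1: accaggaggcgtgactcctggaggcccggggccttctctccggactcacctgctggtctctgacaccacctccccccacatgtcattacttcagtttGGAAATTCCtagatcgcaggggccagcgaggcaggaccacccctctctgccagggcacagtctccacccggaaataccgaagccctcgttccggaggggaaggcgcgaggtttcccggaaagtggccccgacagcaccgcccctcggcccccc
The window held 1 match, at -153 from the start, and 0.286% of all 32851 windows held one. Neither Itgam, Itgax, Itga4 nor Itgb1 had this match in its window.

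Icam1 in the lung moved with other measures of the same libraries. In WT the libraries 1 to 5 held 504, 415, 321, 249 and 188 CPM of Icam1, and their epithelial marker sums were 17201, 11411, 9320, 6557 and 484 CPM, which is the same order. In ACKR2-/- the Icam1 levels were 531, 311, 260, 176 and 151 CPM beside epithelial sums of 19379, 12994, 7745, 287 and 6205 CPM. The libraries with the most epithelial marker RNA had the highest Icam1 in both genotypes, while libraries with under 500 CPM of it still held 176 and 188 CPM, above every monocyte and SPM sample. The part of epithelial RNA in the Icam1 level was not tested. In addition, the antisense gene Gm47079, which covers 511 of the 4360 exonic bases of Icam1, held 986 to 4193 counts per lung sample, equal to between 24.4 and 34.7% of the Icam1 count, but 0 or 1 count per monocyte or SPM sample. Cerkl, antisense to Itga4, held 15.03 to 27.9% of the Itga4 count in the lung. Unlike Gm47079 it was also counted elsewhere, at 28 to 68 counts per monocyte sample and 12 to 52 per SPM sample. The kit is not stated to mark strand, and without strand the reads of a gene and its antisense partner cannot be told apart.

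**Figure D3:**
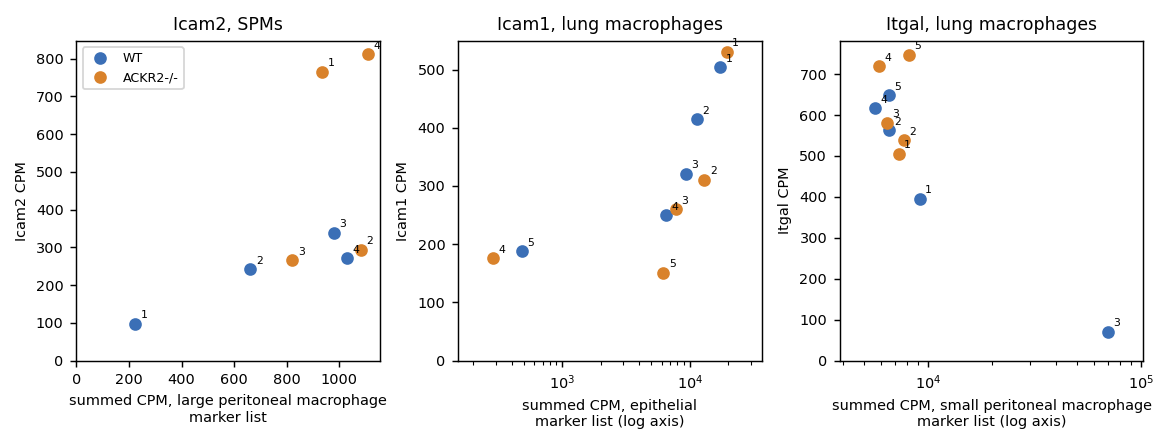
Gene level (CPM) of Icam2 in SPMs and of Icam1 and Itgal in lung macrophages against the summed CPM of a marker list in the same sample; points are samples labelled by replicate, blue for WT and orange for ACKR2-/-. Icam1 is highest in the libraries with the most epithelial marker RNA, Itgal is lowest in the library labelled WT 3, and ACKR2-/- samples 1 and 4 hold the highest Icam2.

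Icam2 (ENSMUSG00000001029, chr11:106377656-106388075, minus strand), which encodes a ligand of LFA-1 kept on resting cells and is known as a surface marker of large peritoneal macrophages (LPMs), was highest in SPMs. WT SPMs held 423 ± 190 (SD, n = 4) joint CPM, WT lung macrophages 120 ± 57.9 (SD, n = 5) and WT monocytes 55.9 ± 6.26 (SD, n = 4). SPMs exceeded monocytes by 2.92 ± 0.42 on the log2 scale (edgeR adjusted p = 3.5e-06), lung macrophages were below SPMs (-1.81 ± 0.38, adjusted p = 0.00018) and above monocytes (1.11 ± 0.38, adjusted p = 0.014). The last of these lost its call without the library labelled WT 1 of the lung (0.83, adjusted p = 0.058). Endothelial cells also carry ICAM-2. In the lung table Icam2 held 251, 185, 99.9, 157 and 78.8 CPM in WT libraries 1 to 5, beside 619, 540, 199, 392 and 64.4 summed CPM of the 7 endothelial markers (Cldn5 the most abundant, none at 0 in every sample). In ACKR2-/- it held 222, 186, 141, 103 and 118.5 CPM beside 530, 444, 298, 66.1 and 224 CPM. Icam2 and the endothelial sum had the same order over the libraries in each genotype, and the part of endothelial RNA in the Icam2 level was not tested.

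Cd226 (ENSMUSG00000034028, GRCm38 chromosome 18, plus strand) had the widest range of the 9 genes. WT SPMs held 148 ± 46.6 (SD, n = 4) joint CPM, WT lung macrophages 2.66 ± 1.91 (SD, n = 5) and WT monocytes 0.182 ± 0.174 (SD, n = 4). SPMs exceeded monocytes by 9.60 ± 0.76 on the log2 scale (edgeR adjusted p = 2.0e-10) and lung macrophages were below SPMs (-5.79 ± 0.54, adjusted p = 1.5e-09), where the monocyte value rested on 1 to 10 reads per WT library. T cells and NK cells also express Cd226. The 10 T cell markers summed to 76.6 to 147 CPM in WT SPMs and 82.8 to 274 CPM in WT lung macrophages, each on the scale of its own table. The part of T and NK cells in the Cd226 level was not tested.

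The scale of these levels depended on the libraries' composition. Scaled by total counts alone, the median gene was 0.96 lower in WT SPMs than in WT monocytes on the log2 scale, against 0 under TMM, and 1.62 rather than 0.41 higher in WT lung macrophages than in WT SPMs. Under total counts the SPM over monocyte differences turned negative for Itgb2 (-0.76), Itga4 (-0.45), Icam1 (-0.32) and Itgb1 (-0.12), and the lower level of Itgam and Icam2 in lung macrophages than in SPMs lost its call (adjusted p = 0.066 and 0.20). Subtracting the median gene removes a shift that all genes share by construction. Relative to it, the SPM over monocyte difference was, under TMM and total counts, 0.42 and 0.21 for Itgb2, 0.58 and 0.51 for Itga4, 0.90 and 0.64 for Icam1, and 0.99 and 0.84 for Itgb1. The lung over SPM difference was -2.24 and -2.32 for Itgam and -2.23 and -2.10 for Icam2 on that scale. With ACKR2-/- samples in place of WT, Itgb2 was called higher in SPMs than in monocytes (1.22, adjusted p = 0.0074).

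The genotype comparisons asked whether loss of ACKR2 changed these genes within a cell type. No member passed the test in any of the 3 cell types with edgeR or DESeq2, and at an unadjusted p below 0.05 in edgeR there were 2 of 8 tested members in monocytes (Itgax and Itgb1), 1 of 9 in SPMs (Icam2) and 0 of 9 in lung macrophages, beside 2251 of 13246, 709 of 12997 and 499 of 16824 among all genes tested. Among all genes, 1.27% were called in monocytes (0.913% higher and 0.355% lower in ACKR2-/-), 0.0462% in SPMs (0.0308% higher and 0.0154% lower), and 0% in lung macrophages (0% higher and 0% lower), where DESeq2 called 15 genes. Values of the genotype comparisons are in CPM scaled within each table.

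**Figure D4:**
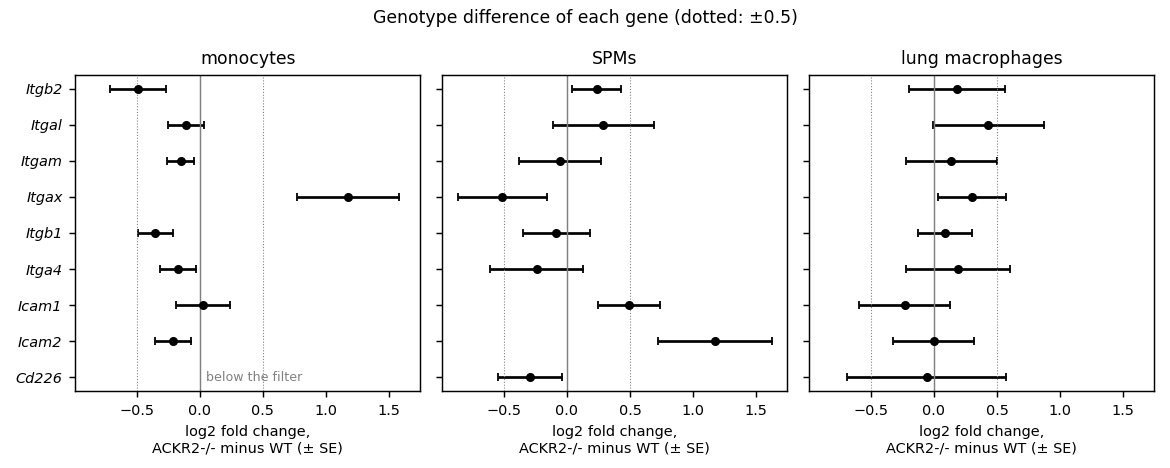
Log2 fold change of ACKR2-/- over WT (points, with SE as bars) for the 9 genes in monocytes, SPMs and lung macrophages, from edgeR; dotted lines mark ±0.5 and Cd226 in monocytes was below the filter on low counts. The largest values are Itgax in monocytes (1.17) and Icam2 in SPMs (1.17), and no gene passed the adjusted threshold.

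In monocytes neither beta chain of the 9 genes passed the test. Itgb2 held 581, 466, 473 and 483 CPM in WT and 287, 224, 522 and 394 CPM in ACKR2-/- samples. Of the ACKR2-/- samples, 3 lay below all WT samples and replicate 3 lay among them, so the groups overlapped. The log2 fold change was -0.49 ± 0.23 (edgeR adjusted p = 0.30). Neutrophils carry much CD18, and the 8 neutrophil markers (S100a9 the most abundant, none at 0 in every sample) summed to 52187, 99227, 45064 and 70469 CPM in the WT and 63573, 64949, 18427 and 24902 CPM in the ACKR2-/- samples, with 0 of 8 called. In WT this sum rested on S100a9, S100a8, Ngp, Elane and Mpo, at means of 18647, 16085, 14678.5, 9995 and 7295 CPM. The gate took Ly6G- cells, and Ly6g, Cxcr2 and Retnlg were at WT means of 11.8, 14.1 and 9.49 CPM. Within ACKR2-/- the samples with the higher sums of this list had the lower Itgb2. The 8 monocyte markers (Lyz2 the most abundant, none at 0 in every sample, 0 called) summed to 63263, 56710, 69275 and 62857 CPM in WT and 28820, 44337, 73046 and 63681 CPM in ACKR2-/- samples. ACKR2-/- samples 1 and 2, the lowest in Itgb2 and in Itgb1, were below every WT sample in these markers and samples 3 and 4 were not. Which cells gave the neutrophil marker RNA was not tested, nor was the part of any cell type in the Itgb2 and Itgb1 levels. Itgb1 held 113, 99.2, 98.9 and 96.3 CPM in WT and 72.3, 63.4, 94.5 and 88.8 CPM in ACKR2-/- samples. All ACKR2-/- samples lay below all WT samples, and the log2 fold change was -0.35 ± 0.14 (edgeR adjusted p = 0.23; exact two-sided permutation p = 0.029, the smallest that 4 against 4 samples allow). Itgal, Itgam, Itga4 and Icam2 had log2 fold changes between -0.21 and -0.11, Icam1 had 0.03, and all 5 overlapped between genotypes.

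Itgax and Cd226 were scarce in monocytes. Itgax held 12, 6, 7 and 10 reads in WT (0.782, 0.373, 0.389 and 0.559 CPM) and 35, 18, 18 and 17 reads in ACKR2-/- samples (1.88, 1.02, 0.947 and 0.903 CPM). All ACKR2-/- samples lay above all WT samples, and the log2 fold change was 1.17 ± 0.41 (edgeR adjusted p = 0.18; exact two-sided permutation p = 0.029). Groups did not overlap for 2 of the 8 tested members in monocytes, Itgax and Itgb1, against 10.2% of all genes tested. Cd226 held 3, 2, 10 and 1 reads in WT and 14, 6, 17 and 25 reads in ACKR2-/- samples and fell below the filter on low counts. Its groups overlapped at WT replicate 3 (exact two-sided permutation p = 0.057), and DESeq2, whose own filter on low counts it passed, gave a log2 fold change of 1.82 with an adjusted p of 0.17. Beside both genes stand the T cell markers, of which 8 of 10 were called higher in ACKR2-/- monocytes, at a mean sum of 4.15 CPM in WT and 88.4 CPM in ACKR2-/-, and the dendritic cell markers, of which 2 of 8 were called higher at mean sums of 101.7 and 150.4 CPM. Among the dendritic cell markers the largest rise in mean CPM was that of Siglech, from 4.56 to 35.2 CPM. Flt3 was the only one with a lower mean, at 10.3 CPM in WT and 9.53 CPM in ACKR2-/-. The part of T cells and dendritic cells in the Itgax and Cd226 reads was not tested.

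In SPMs Icam2 had the largest difference. WT samples held 97.6, 242, 338 and 271 CPM and ACKR2-/- samples 764, 293, 266 and 811 CPM. ACKR2-/- samples 1 and 4 were above every WT sample, and the other two lay within the upper WT range, so the groups overlapped. The log2 fold change was 1.17 ± 0.45 (edgeR adjusted p = 0.79, DESeq2 adjusted p = 0.68; exact two-sided permutation p = 0.17). The 8 LPM markers (Alox15 the most abundant; Icam2 is not among them) summed to 224, 662, 978 and 1027 CPM in the WT samples and to 936, 1081, 821 and 1109 CPM in the ACKR2-/- samples, with 0 of 8 called, and none was at 0 in every sample. The WT sample with the least LPM marker RNA also had the least Icam2. ACKR2-/- samples 2 and 4 had close LPM sums and Icam2 levels of 293 and 811 CPM. ACKR2-/- samples 1 and 4 also held the most NK cell marker RNA, at 115 and 160 summed CPM of 8 markers (Nkg7 the most abundant) against 18.6 to 83.6 CPM in the other 6 SPM samples. Their 8 dendritic cell markers (Cd209a the most abundant) summed to 602 and 248 CPM, against 983 and 1152 CPM in ACKR2-/- samples 2 and 3 and 201 to 1330 CPM in WT. Cd209a, also in the SPM marker list, made up most of the dendritic cell sum, at means of 766 CPM in WT and 657 CPM in ACKR2-/-. In WT Clec10a was at 87.1 CPM and the remaining markers of that list at means of 0.0844 to 5.50 CPM. No marker of these lists was at 0 in every sample and 0 were called. Which cells gave the Cd209a RNA was not tested, nor was the part of LPMs, NK cells or dendritic cells in the Icam2 level.

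The other members overlapped between genotypes in SPMs, where 3.4% of all genes did not. Icam1 held 10.6, 19.9, 12.6 and 19.99 CPM in WT and 24.8, 18.9, 20.2 and 25.0 CPM in ACKR2-/- samples (log2 fold change 0.49 ± 0.25, edgeR adjusted p = 0.79). Only ACKR2-/- sample 2 lay below the highest WT samples. Itgax (-0.51 ± 0.35), Cd226 (-0.29 ± 0.25), Itgal (0.29 ± 0.40), Itga4 (-0.24 ± 0.37), Itgb2 (0.24 ± 0.19), Itgb1 (-0.08 ± 0.26) and Itgam (-0.06 ± 0.33) all had adjusted p of 0.79 or above. WT sample 1 was above all other WT samples in Itgam (241 against 90.7 to 115 CPM), Itgax (11.5 against 4.57 to 5.58 CPM) and Itga4 (59.8 against 18.8 to 22.9 CPM), and it had the lowest sums of the LPM, B cell, dendritic cell, mast cell or basophil, and platelet markers of the 8 SPM samples. Without it the genotype difference of Itga4 was 0.34 and that of Itgam 0.38, both of the opposite sign, and that of Itgax was -0.13 in place of -0.51, with none called.

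In lung macrophages all 9 members overlapped between genotypes, against 0.446% of all genes without overlap. Itgal held 396, 563, 70.2, 617 and 648 CPM in WT and 506, 539, 582, 720 and 748 CPM in ACKR2-/- samples, and apart from WT 3 the groups lay close together (log2 fold change 0.43 ± 0.44, edgeR adjusted p = 1.00). Itgb2 held 1009, 1244, 314, 1171 and 1649 CPM in WT and 1273, 1041, 924, 1995 and 875 CPM in ACKR2-/- samples (0.18 ± 0.38). Icam1, Itgax, Itga4, Itgam, Itgb1, Cd226 and Icam2 had log2 fold changes between -0.23 and 0.30. Without the libraries labelled WT 3 and WT 5 together, 0 of 9 members were called. The 8 NK cell markers (Gzma the most abundant) had a summed level of 189 to 516 CPM in WT and 440 to 2747 CPM in ACKR2-/- lung samples, with 0 of 8 called and none at 0 in every sample, while Cd226, which NK cells express, was at 0.655 to 7.65 and 0.765 to 6.62 CPM.

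The genotype effects themselves were compared between cell types in the joint fit, where no member passed the adjusted threshold. The share of all genes that did was 0.253% between monocytes and SPMs, 0.0393% between SPMs and lung macrophages and 0.152% between monocytes and lung macrophages. These comparisons share samples pairwise. Of the SPM effects minus the monocyte effects, the largest were -2.01 ± 0.91 for Cd226 (edgeR adjusted p = 0.64), -1.57 ± 0.50 for Itgax (adjusted p = 0.34) and 1.44 ± 0.56 for Icam2 (adjusted p = 0.53), all with an unadjusted p below 0.05. For Cd226 the lung effect minus the monocyte effect was -1.78 ± 0.90 (adjusted p = 0.84). Both Cd226 values rested on 16 reads in WT and 62 reads in ACKR2-/- monocytes. For Icam2 the lung effect minus the SPM effect was -1.20 ± 0.53 (adjusted p = 0.79).

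Around the members, 6 lists of integrin and adhesion genes were followed, beginning with other chains. Of the other integrin alpha chains, 0 of 5 tested were called in monocytes, 0 of 6 in SPMs and 0 of 12 in lung macrophages, and of the other beta chains 0 of 3, 0 of 3 and 0 of 5. Itgb7, the beta chain that pairs with the Itga4 product in the gut-homing integrin, was the most abundant of these per kb, at 130 ± 17.0 CPM per kb (SD, n = 4) in WT monocytes and 37.8 ± 10.5 (SD, n = 4) in WT SPMs on the joint scale. It lay at 59.2 CPM in WT and 149 CPM in ACKR2-/- SPMs (log2 fold change 1.33 ± 0.43, edgeR adjusted p = 0.79), the smallest unadjusted p of its list there. WT lung macrophages held 65.8 ± 14.4 CPM per kb (SD, n = 5) of it. Itgb5, which pairs with the alpha-v chain, was at 5.03 CPM per kb in WT monocytes, 0.679 in WT SPMs and 41.4 in WT lung macrophages, and Itgb3, the other common partner of alpha-v, at 1.74, 0.233 and 0.921. Itga5, the fibronectin receptor chain, was the most abundant alpha chain of the list by its mean over all samples, at 2.26 CPM per kb in WT monocytes, 1.11 in WT SPMs and 5.77 in WT lung macrophages, followed by Itgav (0.771, 0.992 and 3.45) and Itga6, a laminin receptor chain (0.808, 2.06 and 1.28). In WT SPMs Itga6 was above Itga5.

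The smallest unadjusted p-values among these chains belonged to differences that did not pass. In monocytes Itga1, a collagen receptor chain, was at 36.2 CPM in WT and 45.1 in ACKR2-/- (0.32 ± 0.15), and Itgav at 10.6 and 12.5 CPM (0.24 ± 0.16), with Itgb5 at 22.9 and 18.2 CPM (-0.33 ± 0.23) and Itgb7 at 462 and 408 CPM (-0.18 ± 0.21). In SPMs Itga6 was at 10.6 and 15.9 CPM (0.58 ± 0.32), Itgav at 6.21 and 4.32 CPM (-0.53 ± 0.35) and Itgb5 at 1.36 and 2.74 CPM (0.99 ± 0.44). In the lung Itgad was at 1.21 and 2.56 CPM (1.08 ± 0.50), Itga5 at 37.1 and 24.9 CPM (-0.58 ± 0.28), Itgb3 at 6.93 and 12.2 CPM (0.82 ± 0.36) and Itgb5 at 191 and 135 CPM (-0.50 ± 0.22).

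Of the 31 genes of integrin activation and linkage, 25 were tested in monocytes, where 1 was called higher and 2 lower in ACKR2-/-. Among all genes tested there, 0.913% were called higher and 0.355% lower. The list median log2 fold change was -0.26, beside a median of 0.00 over all genes tested. Ptk2b, which encodes the kinase PYK2 that signals downstream of leukocyte integrins, fell from 74.3 to 41.3 CPM (log2 fold change -0.84 ± 0.14, edgeR adjusted p = 0.011). Pxn, which encodes the adapter paxillin, fell from 65.1 to 37.6 CPM (-0.79 ± 0.16, adjusted p = 0.038). Skap1, an adapter that T cells use to switch on LFA-1, rose from 0.149 to 8.73 CPM (5.81 ± 0.41, adjusted p = 1.5e-05) together with the T cell markers given above. In SPMs 0 of 27 and in lung macrophages 0 of 31 genes of this list were called, with list medians of -0.03 and 0.04. Rap1b, the small GTPase that opens integrins, was its most abundant gene per kb, at 206 CPM per kb in WT monocytes, 678 in WT SPMs and 620 in WT lung macrophages on the joint scale. Rap1a, a close relative, was at 60.7, 97.1 and 124. In SPMs Tln1, which encodes the integrin activator talin, was at 187 CPM in WT and 115 CPM in ACKR2-/- (-0.70 ± 0.40, edgeR adjusted p = 0.79). In the lung Skap1 was at 21.4 and 45.8 CPM (1.10 ± 0.44) and Src at 1.26 and 0.509 CPM (-1.29 ± 0.80), neither called.

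Ligands of these integrins gave no call. Of 16 integrin ligands and counter-receptors, 0 of 6 tested were called in monocytes, 0 of 6 in SPMs and 0 of 11 in lung macrophages. Vcam1, the VLA-4 ligand, stood at 111 CPM in WT and 56.7 CPM in ACKR2-/- monocytes (-0.97 ± 0.35, edgeR adjusted p = 0.19), and C3, the complement protein whose fragment iC3b Mac-1 binds, at 394 and 311 CPM (-0.34 ± 0.13). In SPMs C3 was at 7.40 and 38.3 CPM (2.36 ± 0.90, adjusted p = 0.79) and Jam2, a junctional ligand of VLA-4, at 3.98 and 11.5 CPM (1.54 ± 0.61). In the lung F11r was at 118.3 and 78.03 CPM (-0.60 ± 0.52) and Fn1 at 39.0 and 32.5 CPM (-0.26 ± 0.37). On the joint scale per kb, Fn1 (fibronectin) was at 39.3 in WT monocytes, 185 in WT SPMs and 2.60 in WT lung macrophages, C3 at 59.9, 2.48 and 14.0, and Spp1 (osteopontin) at 12.7, 2.04 and 46.8.

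Receptors that share ligands with CD226, and the remaining adhesion genes, gave calls in the monocyte comparison. All were calls of higher levels in ACKR2-/- monocytes, where 0.913% of all genes tested were called higher. Of the CD226 ligands and rival receptors, Cd96, a rival of CD226 on T and NK cells, was called higher in ACKR2-/- monocytes (0.221 to 1.93 CPM, 3.08 ± 0.36, adjusted p = 0.0012), which made 1 of 6 tested, with 0 of 6 in SPMs and 0 of 8 in the lung, where Tigit, another rival, stood at 1.08 and 5.45 CPM (2.33 ± 1.05, adjusted p = 1.00) and Cd96 at 5.33 and 13.4 CPM (1.33 ± 0.82). In SPMs Cd96 was at 1.72 and 2.499 CPM (0.55 ± 0.40) and Nectin1 at 1.08 and 0.757 CPM (-0.54 ± 0.49). Pvr, which encodes the ligand CD155, was at 0.432 CPM per kb in WT monocytes, 0.478 in WT SPMs and 3.34 in WT lung macrophages on the joint scale, with Cd96 at 0.0792, 1.41 and 1.89 and Pvrig at 0.799, 3.70 and 0.877. Of the selectins and other leukocyte adhesion genes, 2 of 17 tested were called higher in ACKR2-/- monocytes, namely Cd2, a T and NK cell adhesion receptor (0.635 to 11.03 CPM, 4.10 ± 0.27, adjusted p = 9.9e-06), and Cd34, a sialomucin of progenitor cells (8.99 to 21.5 CPM, 1.26 ± 0.27, adjusted p = 0.047). Cd96 and Cd2 rose together with the T cell markers given above, and the part of T and NK cells in their reads was not tested. Of the selectins and other leukocyte adhesion genes, 0 of 16 in SPMs and 0 of 18 in lung macrophages were called. In SPMs Alcam was at 51.8 CPM in WT and 25.99 CPM in ACKR2-/- (-0.995 ± 0.45). In the lung Emb was at 180 and 246 CPM (0.45 ± 0.19) and Selplg, the P-selectin ligand, at 482 and 620 CPM (0.36 ± 0.17). By the mean over all samples, the most abundant genes of the list per kb on the joint scale were Cd48 (339 in WT monocytes, 903 in WT SPMs and 265 in WT lung macrophages) and the tetraspanin genes Cd9 (67.7, 89.4 and 384) and Cd81 (34.0, 345 and 133).

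The genes whose joint log2 CPM followed each member most closely over the 26 samples are given as a description, since the samples share 3 cell types and 3 counting runs. Cd226 was followed by Lyz1 (Pearson r = 0.990) and Retnla (r = 0.987), Itgax by Traf1 (r = 0.987) and Map4k2 (r = 0.985), and Itgal by Ttc7b (r = 0.985) and Rhbdf2 (r = 0.979). Icam1 was followed by Cav1 (r = 0.982) and Ier3 (r = 0.981), and Icam2 by Slc25a1 (r = 0.957) and Marco (r = 0.953). Itgam was followed by Mlxipl (r = 0.947) and Nras (r = 0.945), and Itgb2 by Gm35853 (r = 0.960) and Samsn1 (r = 0.950). Itga4 was followed by Cdkn1b (r = 0.965) and Apbb1ip (r = 0.959), and Itgb1 by Slc11a1 (r = 0.957) and P4ha1 (r = 0.952). Of the 17791 other genes, 1187 had an r above 0.9 with Icam1 and 9 with Itgb2.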

How the data were processed

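Bulk RNA-seq was measured in 26 samples of sorted cells, as poly-A libraries made after SMARTer amplification of total RNA. The authors deposited raw read counts per gene, not normalised, in 1 table per cell type. The submitters' processing notes name HISAT2 2.0.5, featureCounts 1.5.0-p3 and DESeq2 with the GRCm38 build. The lung table carries summary lines of another counter, whose name was not given; these lines held 56.3% of its counts (no feature 45.1 to 48.9%) and were left out. The deposited gene length was used for CPM per kb. Columns mapped to no sample numbered 0.

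Samples were grouped by the titles. Counts were tested per cell type with edgeR 4.0.16 (R 4.3.3; quasi-likelihood test, TMM, filterByExpr with a minimum count of 10, Benjamini-Hochberg adjustment), and in 1 fit of all 26 samples over 17792 genes for contrasts between cell types. SEs were derived from the fold change and F. Genes named were all 9 members, Ackr2, called genes of 6 lists (or the smallest unadjusted p), the most abundant list genes per kb, abundant marker genes and the 2 closest genes per member; results of 2 list genes are not reported here. Members and lists were chosen with earlier results of these data known. Alternatives were DESeq2 1.42.0, other factors, other filters, a replicate block, leaving out each sample and, chosen after seeing the data, the exonic bases of no other gene as length. The lowest chi-square per degree of freedom between replicates was 10.6, so no library was a repeat of another. Same-numbered samples of the genotypes had deviation correlations from -0.12 to 0.64, and the numbers were not taken as pairs. The tests were checked on data drawn with known changes. Depth gives a floor of 3 counts, which is at most 0.264 CPM in any sample.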

Additional observations from a re-analysis of the deposited data

Results flagged for a closer look

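In 7 of 54 member and group combinations, 1 sample lay farther from the rest than the 95% limit of Dixon's test, which chance exceeds in about 5% of groups. Of these, 3 concern the same sample, WT SPM 1, with 241 CPM of Itgam (the nearest other sample at 115), 11.5 CPM of Itgax (nearest 5.58) and 59.8 CPM of Itga4 (nearest 22.9). WT monocyte sample 1 stood above its group in Itgb1 (113 CPM, nearest 99.2) and in Itgb2 (581 CPM, nearest 483). ACKR2-/- monocyte sample 1 stood above its group in Itgax (1.88 CPM, nearest 1.02), and ACKR2-/- monocyte sample 2 stood below its group in Icam1 (11.3 CPM, nearest 21.1).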

How the results depend on the processing

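The count of called members was 0 for each genotype comparison and each difference of genotype effects under every alternative, the replicate block included (0 members), and 5 to 8, 7 to 9 and 7 to 8 for WT SPMs over monocytes, lung macrophages over SPMs and lung macrophages over monocytes. Of the values of single members, 1299 kept direction and side of the threshold, 12 lost a call, 3 gained one and 73 changed sign; the cause was not tested. With total counts alone the SPM over monocyte differences of Itgb2, Itga4, Icam1 and Itgb1 became -0.76, -0.45, -0.32 and -0.12, and the genotype differences of Itgal in monocytes and Itgb1 in SPMs 0.0014 and 0.0038. With the replicate block, Icam1 in monocytes became -0.010, Itgam in SPMs 0.042, and Icam2 and Cd226 in the lung 0.062 and 0.012. The lung minus SPM effect of Itgb2 became 0.0055 with it. Same-numbered samples were not taken as pairs, although the lung samples numbered 1 had a deviation correlation of 0.643. Itgam in SPMs was 0.0041 without a filter and 0.036 in the joint fit. Icam2 in the lung was 0.0133 with DESeq2, 0.0126 with RLE factors, 0.0071 without a filter and 0.0047 in the joint fit, and Cd226 was 0.17 without WT 3 and 5. DESeq2 and RLE factors gave -0.0027 and -0.0033 for Itga4 (SPM minus monocyte effect) and 0.0042 and 0.0041 for Itgb2 (lung minus SPM effect).

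Leaving out 1 sample at a time gave genotype differences from -0.062 to 0.23 for Icam1 in monocytes. In SPMs they ran from -0.22 to 0.38 for Itgam, -0.71 to -0.13 for Itgax (the latter without WT 1), -0.12 to 0.54 for Itgal, -0.40 to 0.34 for Itga4 and -0.25 to 0.11 for Itgb1. In the lung they ran from -0.11 to 0.46 for Itgam, -0.019 to 0.46 for Itga4, -0.046 to 0.23 for Itgb1, -0.066 to 0.43 for Itgb2, -0.17 to 0.27 for Icam2 and -0.46 to 0.48 for Cd226. Differences of effects ran from -0.090 to 0.56 for Itga4 (SPM minus monocyte), from -0.60 to 0.014 for Icam1 (lung minus monocyte) and, for lung minus SPM, from -0.28 to 0.39 for Itgam, -0.21 to 0.48 for Itgal, -0.18 to 0.56 for Itga4, -0.034 to 0.30 for Itgb1, -0.33 to 0.13 for Itgb2 and -0.19 to 0.70 for Cd226. An alternative length for the alpha chains, the exonic bases of no other gene, was chosen after seeing the data. It gave shares of 20.3% Itgal, 79.5% Itgam and 0.212% Itgax in WT monocytes, 1.34%, 97.0% and 1.63% in WT SPMs, and 44.3%, 37.8% and 17.7% in WT lung macrophages, where Itgam then exceeded Itgax. Itgax and Cd226 in monocytes rested on a few reads per library, so depth limits their values.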
